A study of Saccharomyces cerevisiae with 5 samples.

Results

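The genes described here encode 55 proteins of the pre-mRNA splicing machinery of budding yeast, Saccharomyces cerevisiae. They were chosen by name from the platform annotation and are the protein genes of the small nuclear ribonucleoprotein particles (snRNPs), the PRP genes and other spliceosome factors. All 55 were spotted on both array platforms, out of 5583 genes spotted in all. They took 67 spots on the first platform, with 1 spot for 43 of them and 2 spots for 12, and 110 spots on the second, with 2 spots for each. The splicing factor RNAs were measured as ordinary messenger RNAs here, and nothing in these values reports on the splicing activity of the proteins.

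Each of 5 spotted 2-channel arrays compared RNA co-purified with the tagged protein zzYra1 by immunoprecipitation (IP) with total RNA. Yra1 binds RNA and helps hand mature mRNA to the receptor that exports it from the nucleus. Per the labels, channel 1 of arrays 1 and 3 and channel 2 of arrays 2, 4 and 5 held the IP RNA. Arrays 1 and 2 were of the first platform. They may be a technical dye swap, so they were averaged as replicate 1, and arrays 3, 4 and 5, of the second platform, were replicates 2, 3 and 4. Strain, growth condition and cultures are not given in the sources used here, and a mock precipitation was not analysed here. The number of arrays limits the precision of every value.

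The deposited values were taken as log10 ratios of the 2 channels, a base inferred from the values themselves. They are given below as log2 ratios centred on the median spot of each array, so that 0 is the array median and 1 is a 2-fold difference from it. Before centring, the median log10 ratio was -1.39, 1.34, -0.85, 0.30 and -0.14 on arrays 1 to 5, below 0 on both arrays with the IP RNA in channel 1 and above 0 on 2 of the 3 others. The sources used here do not say which channel is on top. "Above" and "below" therefore refer to the deposited ratio and to the array median, and say nothing of whether an RNA was enriched or depleted in the IP. Where a role group's count or a gene's main mean pools arrays of both channel assignments, it is also given with the channel 2 arrays turned (sign changed). A ratio also does not separate more RNA in one channel from less in the other.

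Splicing removes introns from pre-mRNA in the spliceosome, which assembles anew on each intron from the U1, U2, U4, U5 and U6 snRNPs. U1 recognises the 5′ splice site, U2 pairs with the branch site, and the U4/U6.U5 tri-snRNP then joins. RNA helicases drive the rearrangements between these steps, and the Prp19 complex stabilises the catalytic centre. In this yeast few genes have introns, but many of those are highly expressed.

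The arrays differed in how well spots of 1 gene repeated, and this bears on every gene below. Where 2 spots of 1 gene had values on 1 array, their ratios had a Pearson correlation across genes, which are not independent replicates, of 0.12 on array 1 and 0.31 on array 2. For arrays 3, 4 and 5 the correlations were 0.79, 0.86 and 0.92. On arrays 1 and 2 such spots fell on the same side of the median for 53.2% and 52.8% of genes. On arrays 3, 4 and 5 the shares were 75.1%, 79.2% and 90.8%. The ratios given for a gene on the first platform therefore hardly repeated within an array. Whether the annotation of that platform names its spots correctly is not settled by the sources used here, so a value on array 1 or 2 may belong to another gene. Test results are also given from the second platform alone. The share of spots with a value fell from 7591 of 7680 on array 1 to 3722 of 12800 on array 5. The spread of gene values was widest on array 5, with an SD of 2.25 against 0.81 to 1.11 on the others.

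Every one of the 55 splicing factor genes had a value on at least 1 array, but few were measured throughout. A value was present for 53 genes on array 1, where 99.2% of all genes had one, and for 37 genes on array 2, where 68.9% did. On the second platform there were values for 23, 26 and 10 genes on arrays 3, 4 and 5. These are 41.8%, 47.3% and 18.2% of the 55 genes, below the 48.8%, 57.7% and 31% of all genes on the same arrays, whereas the shares on arrays 1 and 2 (96.4% and 67.3%) lay closer to those of all genes. Of the 43 other spliceosome genes on the second platform, 53.5%, 53.5% and 25.6% had a value on arrays 3, 4 and 5. In all, 149 of 275 possible gene-by-array values existed. SNU66 and PRP16 alone had a value on all 5 arrays, 7 genes had 4, 24 had 3, 17 had 2 and 5 had 1. No test was made of these shares.

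**Figure D1:**
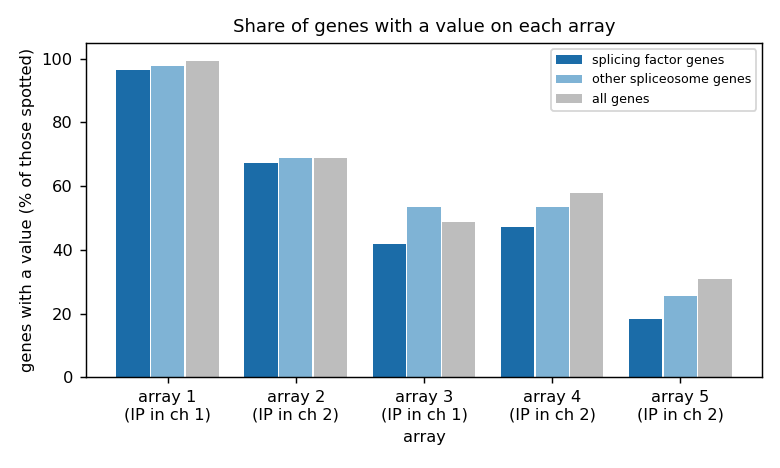
Percentage of the spotted genes that had a value on each array, for the 55 splicing factor genes, the other spliceosome genes and all genes. On arrays 3, 4 and 5 the splicing factor genes lay below all genes, at 41.8%, 47.3% and 18.2%.

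The 5 genes with a single value were SMD3, NAM8, MUD2, PRP4 and PRP38, 4 of them on array 1 and PRP4 on array 2. NAM8, a U1 protein also needed for splicing of meiotic transcripts, had the highest of these values (1.67), and PRP4, a U4/U6 snRNP protein, the lowest (-0.92). SMD3 (0.11), PRP38 (-0.49) and MUD2 (-0.59) lay between them. All 5 rest on the first platform. Across the 55 genes, the number of arrays with a value had a Spearman correlation of 0.27 with gene length, against 0.059 over 5533 genes on both platforms, and the points share the same 5 arrays.

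As a group the splicing factor genes lay near the array medians, with 73 values above and 76 below, or 80 above and 69 below turned. The median of the group was 0.03, -0.18, 0.03, -0.18 and 0.19 on arrays 1 to 5. The median of all genes on these arrays was -0.01, 0.00, -0.04, -0.03 and -0.10. The group medians were below 0 on arrays 2 and 4 and above 0 on the other 3. On array 5 the median rests on 10 genes, and with a position trend over the slide removed it was -0.038.

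The group held genes on both sides of each median. On array 1, 28 of 53 genes were above, where 49.4% of all genes were. Array 2 had 15 of 37 above (50.2% of all genes) and array 3 had 12 of 23 (47.6%). Array 4 had 11 of 26 (48.7%) and array 5 had 7 of 10 (48.2%). As deposited, the majority was above on arrays 1, 3 and 5 and below on arrays 2 and 4. With the channel 2 arrays turned it was above on 4 of the 5 arrays, array 5 being the exception, so whether the side changed between arrays depends on how the ratios run.

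Values more than 2-fold from the array median were no more frequent than among all genes on any array except array 3. They numbered 11 of 53 on array 1 (20.8%, against 23.3% of all genes) and 5 of 37 on array 2 (13.5% against 15.2%). On array 3 they numbered 8 of 23 (34.8% against 26.6%), on array 4 4 of 26 (15.4% against 26.6%) and on array 5 4 of 10 (40% against 64.5%). The 8 genes on array 3 were SME1, CUS1, SNU13, SNU66 and SYF1 above and LEA1, PRP3 and PRP18 below. CUS1 and PRP18 each rested there on 1 valued spot. The spread of the group on array 5 was 1.71 (SD, 10 genes), against 2.25 for all genes.

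**Figure D2:**
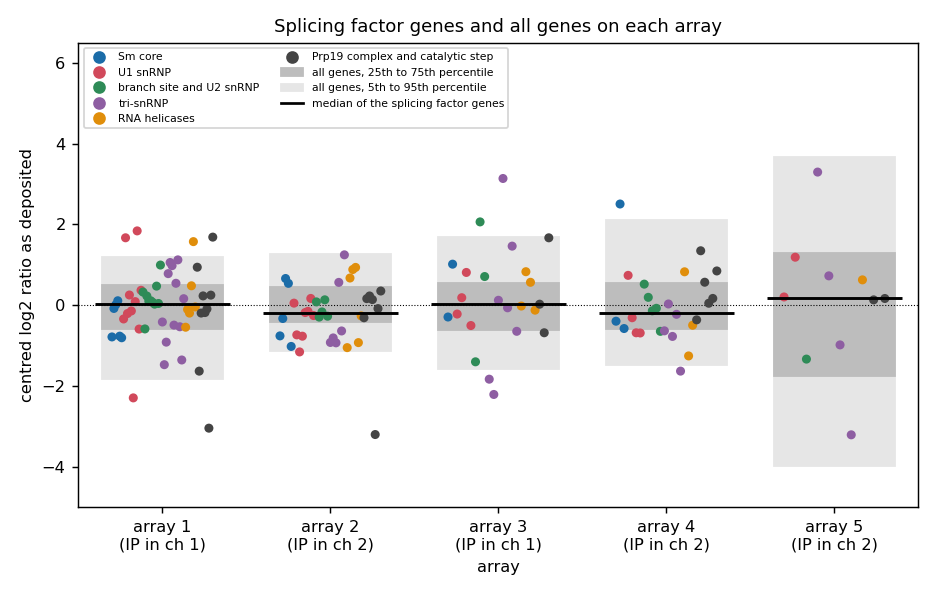
Centred log2 ratio (vertical axis) of each splicing factor gene on each array, coloured by role, with the median of these genes as a black line, over grey bands for the central percentiles of all genes. The group medians run from -0.18 to 0.19, and SYF2 on arrays 1 and 2 lies far below the band.

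The 7 Sm proteins form the ring that binds the snRNAs of the U1, U2, U4 and U5 particles, and their genes had 16 values, 6 above and 10 below (turned, 8 and 8). SME1, which encodes SmE, was at -0.76 on array 1, 1.02 on array 3 and 2.51 on array 4. It was thus low on the first platform and high on both arrays of the second that measured it, whose channel assignments are opposite. Its mean was 0.92 ± 1.64 (SD over 3 replicates), the highest of the 15 splicing factor genes with at least 3 replicates, and turned it was -0.75. On array 4 both spots of SME1 were high (2.74 and 2.27), while on array 3 they were at 1.74 and 0.29.

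SMD1, the SmD1 gene, lay slightly below the median on each of its 4 arrays, at -0.08, -0.33, -0.29 and -0.39 on arrays 1 to 4. Its 2 spots were on opposite sides on array 1 (0.34 and -0.49) and on array 3 (0.10 and -0.68). SMB1 had nearly the same value as deposited on arrays 1 and 2, -0.78 and -0.76, each from 1 spot. The channels were exchanged between these arrays, and turned, the mean of SMB1 was -0.01. SMX3, the SmF gene, was at -1.02 on array 2 and -0.58 on array 4. SMD2 (0.02 and 0.66) and SMX2, the SmG gene (-0.80 and 0.54), were measured on arrays 1 and 2 alone. No Sm gene had a value on array 5.

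The 10 genes of U1 snRNP proteins had 28 values, 12 above and 16 below as deposited but 16 above and 12 below turned. LUC7, a factor in the choice of the 5′ splice site, had the highest mean of those with at least 3 replicates, 0.45 ± 0.97, and was at -0.14, -1.15, 0.81 and 1.19 on arrays 1, 2, 3 and 5. Below the median on the first platform and above it on the second, its mean turned was 0.04. MUD1, the counterpart of the human U1 snRNP protein A, had the other mean, 0.13 ± 0.53, with values of -0.34, 0.05, -0.22 and 0.74 on arrays 1 to 4. Its 2 values with the IP in channel 1 were below the median and its 2 values with the IP in channel 2 above it. Turned, the mean was -0.38.

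Other U1 genes reached larger values on single arrays. PRP39 was below the median on all 3 arrays that measured it, at -2.29, -0.77 and -0.50 on arrays 1, 2 and 3. PRP42, which like PRP39 carries tetratricopeptide repeats, was at 1.84 on array 1 but at -0.15 and -0.68 on arrays 2 and 4. The 2 genes therefore lay on opposite sides on array 1 and both below on array 2. SNU71 (0.37, -0.25 and -0.69 on arrays 1, 2 and 4) and PRP40, which bridges U1 and the branch site (0.09, -0.18 and -0.31), shared that pattern of a value above on array 1 and below on arrays 2 and 4. The spots of PRP40 on array 4 were on opposite sides, at 0.17 and -0.79. SNP1, the U1-70K homologue, ran from -0.73 to 0.19 on arrays 1 to 3, SNU56 was at -0.59 and 0.17 on arrays 1 and 2, and YHC1, the counterpart of the human U1 protein C, at 0.25 and 0.21 on arrays 1 and 5.

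Genes for branch site recognition and the U2 snRNP had 24 values, 15 above and 9 below (turned, 18 and 6). Of these 3 were beyond 2-fold (12.5%), against 24.4% of all genes when each array is weighted by the number of values the group had on it. Weighted likewise, the share was 18.75% against 21.8% for the Sm genes and 17.9% against 24.9% for the U1 genes. For the RNA helicases without BRR2 it was 15% against 24.1%, and for the Prp19 group 22.2% against 25.4%. No test was made of these shares. Of the branch site and U2 genes, 9 of 10 were above the median on array 1, where 49.4% of all genes were. It was 2 of 5 on array 2, 2 of 3 on array 3, 2 of 5 on array 4 and 0 of 1 on array 5. MSL5, the branch point binding protein, was the only 1 with at least 3 replicates, at 0.33, 0.08, 0.52 and -1.33 on arrays 1, 2, 4 and 5. Its low value came from array 5, whose spread was the widest, and the mean was -0.20 ± 0.99 (turned, 0.31). HSH155, HSH49 and PRP11, proteins of the SF3b and SF3a complexes of U2, had values between -0.27 and 0.20 on every array that measured them. On array 4, however, these values averaged spots on opposite sides for HSH155 (0.77 and -1.05) and PRP11 (0.24 and -0.39).

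Other U2 genes lay further from the median on single arrays. CUS1, also of SF3b, was at 0.11 on array 1 and 2.06 on array 3, and LEA1, the counterpart of the human U2 protein A′, was at 0.23, -0.29 and -1.40 on arrays 1, 2 and 3. Both spots of LEA1 on array 3 were below the median, at -0.90 and -1.90, while the value of CUS1 there came from 1 spot. PRP9 was above on both its arrays (0.47 and 0.71 on arrays 1 and 3), PRP21 at 1.00 on array 1 and -0.65 on array 4, and MSL1, the counterpart of the human U2 protein B″, at 0.10 and -0.17 on arrays 1 and 2.

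The 13 genes listed with the tri-snRNP include the second-step factor PRP18 and PRP24, which anneals U4 to U6. They had 34 values, 14 above and 20 below as deposited but 19 above and 15 below turned. Of these 12 were beyond 2-fold (35.3%), against 27.9% of all genes weighted to the same arrays, and no test was made of these shares. SNU66, a tri-snRNP protein, was at -1.35, -0.64, 1.46, -1.63 and -3.21 on arrays 1 to 5. It was below the median on 4 arrays and above it on array 3, where its spots were at 0.50 and 2.43. The lowest value, on array 5, came from 1 spot, the other having none. PRP8, the large protein at the heart of the catalytic centre, was at -0.91 on array 1, 0.03 on array 4 and 3.30 on array 5. Its high value on array 5 was seen in both spots (3.41 and 3.19), the mean was 0.81 ± 2.21, and turned it was -1.41.

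PRP3, a U4/U6 protein, was below the median on arrays 1, 3 and 4, at -0.41, -1.83 and -0.63. PRP18, a factor of the second catalytic step, was above on array 1 (0.78) and below on arrays 3 and 4 (-2.21 and -0.77). Its value on array 3 came from 1 spot. PRP24, which anneals U4 to U6, was at 1.06 on array 1 and nearer the median, at 0.12 and -0.22, on arrays 3 and 4. The 3 genes each had 3 replicates, with means of -0.96 ± 0.76, -0.73 ± 1.50 and 0.32 ± 0.66 (turned, -0.54, -0.22 and 0.47).

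SNU13, a protein of both the U4 snRNP and box C/D snoRNPs, had the largest value of the group on array 3. It was at 1.12 on array 1 and 3.14 on array 3, where its spots were at 3.25 and 3.03 and where it ranked 21 from the top of 2705 genes. PRP6 was low on both its arrays (-1.47 and -0.81 on arrays 1 and 2). PRP31 was at 0.98, -0.93 and 0.73 on arrays 1, 2 and 5, SNU114, the GTPase of U5, at 0.16, 1.25 and -0.64 on arrays 1, 2 and 3, and SNU23 at -0.53, 0.57 and -0.06 on the same arrays. The spots of SNU114 on array 1 were on opposite sides, at -0.44 and 0.77. BRR2, the helicase that unwinds U4 from U6, was at 0.54 on array 1 and -0.98 on array 5.

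Among the other RNA helicases, 9 values were above and 11 below the median, and the counts were equal to these when turned. PRP16, which remodels the spliceosome after the first catalytic step, was at -0.19, 0.89, 0.83, 0.83 and 0.63 on arrays 1 to 5. It was above the median on 4 of 5 arrays and in all 4 replicates, and the arrays above included both channel assignments. Its mean was 0.66 ± 0.23 (SD over 4 replicates), and turned it was -0.29. Replicate 1, at 0.35, averaged the values of arrays 1 and 2, which lay on opposite sides, so the SD leaves out that difference. The spots repeated unevenly: -0.21 and -0.17 on array 1, 0.78 and 0.99 on array 2, 1.20 and 0.46 on array 3, and 1.48 and 0.18 on array 4. On array 5 only 1 spot had a value.

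PRP22, which releases the spliced mRNA, was above on its 3 arrays (0.48, 0.94 and 0.57 on arrays 1, 2 and 3). PRP2, which acts just before the first step, was below on the same arrays (-0.54, -1.05 and -0.02), though its spots on array 3 were on opposite sides, at -0.86 and 0.83. PRP43, which takes the spliceosome apart and also serves ribosome assembly, was below on arrays 1, 2 and 4 (-0.04, -0.26 and -0.49), with spots at 0.66 and -1.19 on array 2. PRP28, which helps exchange U1 for U6 at the 5′ splice site, had the lowest mean of the helicases with at least 3 replicates, -0.35 ± 0.81. It was at 1.58, -0.92, -0.12 and -1.25 on arrays 1 to 4, high on the first of these alone, and turned, its mean was 0.79. PRP5, which acts when U2 joins, was at -0.10 and 0.67 on arrays 1 and 2.

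The Prp19 complex and the catalytic step had 27 values, 17 above and 10 below as deposited but 10 above and 17 below turned. SYF1, a scaffold protein of the complex, was at -0.09, 1.67, 0.05 and 0.17 on arrays 1, 3, 4 and 5. It was high on array 3 in both spots (2.21 and 1.13) and within 0.17 of the median elsewhere. PRP45, a factor bound to the activated spliceosome, had the lowest mean of the role group with at least 3 replicates, -0.59 ± 0.20 (turned, -0.41), and was at -1.63, 0.16, -0.68 and -0.36 on arrays 1 to 4. The SD leaves out the difference between arrays 1 and 2, averaged to -0.73 as replicate 1. On array 4 its spots were on opposite sides, at 0.17 and -0.89. CLF1, another scaffold protein, was at -0.18, 0.57 and 0.13 on arrays 1, 4 and 5.

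SYF2 had the most extreme values of all 55 genes on the first platform, at -3.04 on array 1 and -3.20 on array 2. It ranked 30 from the bottom of 5541 genes on array 1 and 5 from the bottom of 3845 on array 2, each from a single spot at the same place, and had no value on the second platform. Since the channels were exchanged between these arrays, turning 1 of them puts the values on opposite sides. SLU7, which helps choose the 3′ splice site, was above on arrays 1, 2 and 4 (1.69, 0.35 and 0.85). PRP46 was at -0.19, 0.23 and 1.35 on those arrays, ISY1 at 0.25, -0.08 and 0.17, PRP19, the ubiquitin ligase of the complex, at 0.94, -0.31 and 0.03 on arrays 1, 2 and 3, and CEF1 at 0.23 and 0.14 on arrays 1 and 2. The spots of CEF1 on array 1 were on opposite sides, at 0.93 and -0.46.

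**Figure D3:**
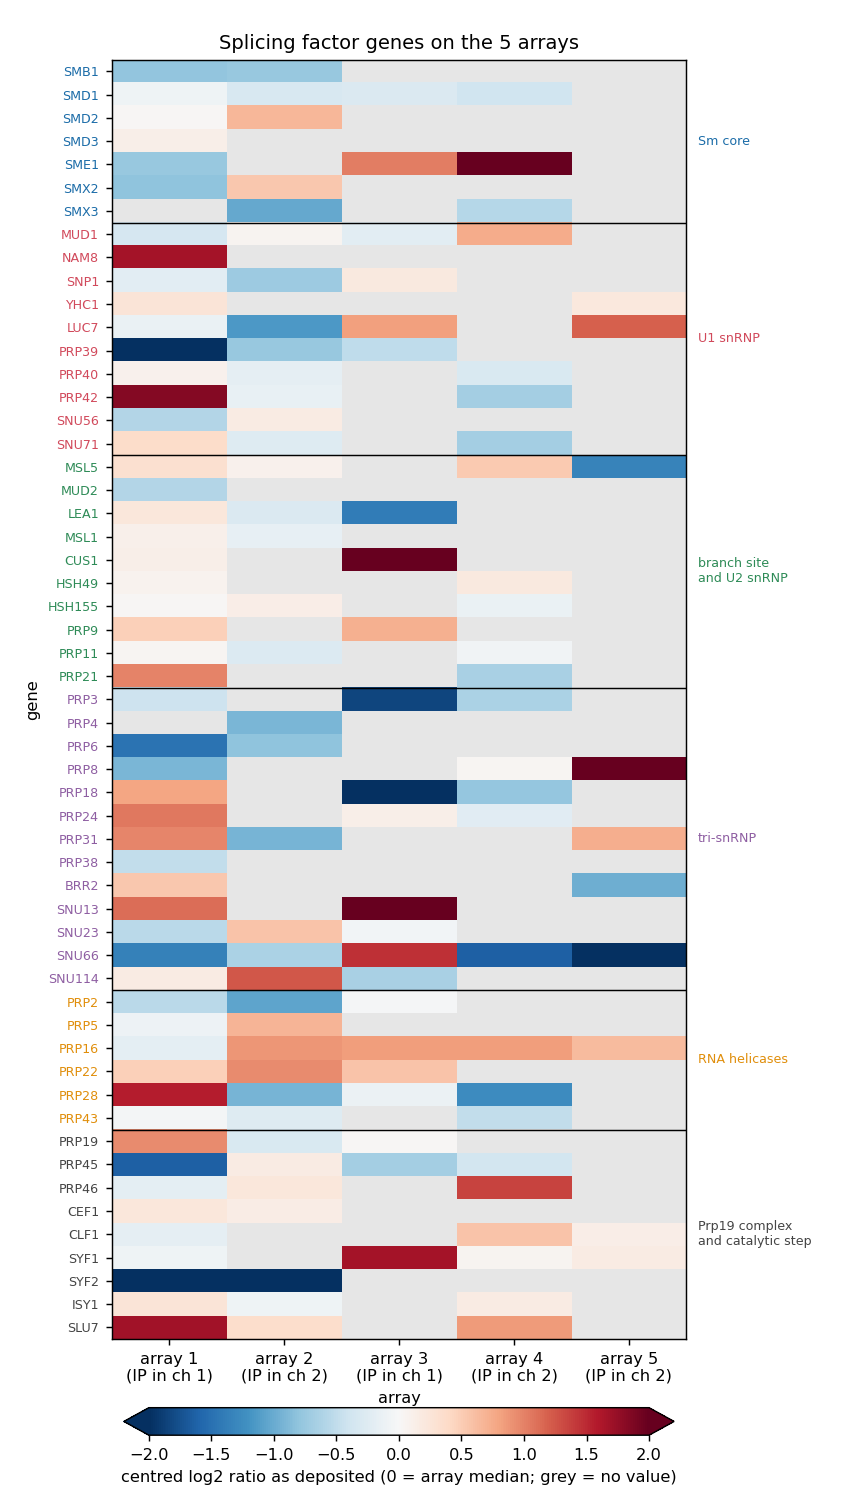
Centred log2 ratio as deposited of the 55 splicing factor genes (rows, grouped by role) on the 5 arrays (columns). Colours saturate at 2 on either side, and grey marks the 126 gene-by-array pairs with no value. PRP16 is above the median on arrays 2 to 5 and SNU66 is below it on every array but array 3.

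The difference between 2 spots of 1 gene on an array gives the error within a slide only. PRP8, with spots 0.06 and 0.22 apart on arrays 4 and 5, had an SD of 2.21 over replicates. For splicing factor genes with 2 valued spots, the median difference between them was 0.28, 0.24, 0.76, 0.35 and 0.32 on arrays 1 to 5, over 12, 4, 14, 23 and 8 genes. Over all genes the median difference was 0.71, 0.61, 0.44, 0.34 and 0.41. The spots fell on the same side in 9 of 12, 3 of 4, 11 of 14, 17 of 23 and 7 of 8 genes. Over all genes the shares on the same side were 53.2%, 52.8%, 75.1%, 79.2% and 90.8%. Spots more than 1 apart were seen in 3 of 12, 1 of 4, 5 of 14, 5 of 23 and 0 of 8 genes on arrays 1 to 5. That share was not computed over all genes. The widest gaps were those of SNU66 on array 3 (1.93), PRP43 on array 2 (1.85) and HSH155 on array 4 (1.82).

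**Figure D4:**
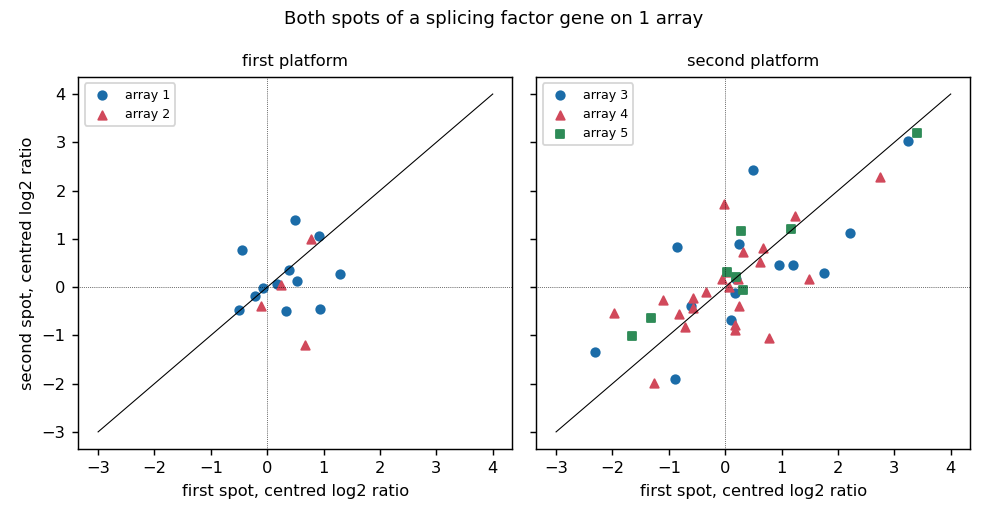
Both spots of a splicing factor gene on the same array, as centred log2 ratios, with the line of equality, for the first platform (left) and the second (right). The spots of SNU13 on array 3 and of PRP8 on array 5 lie near the line at the upper right.

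The same genes were then followed between arrays. Between arrays 1 and 2, 17 of 35 splicing factor genes lay on the same side of both medians, against 50.2% of all genes, and the Pearson correlation across these genes was 0.40, or 0.11 without SYF2. Arrays 2 and 4, which carried the IP RNA in the same channel, shared 17 splicing factor genes, of which 14 lay on the same side against 52.3% of all genes, and the correlation was 0.76 against 0.12 for all 2185 genes. SNU66, PRP28 and SMX3 were the lowest of the 17 on array 2 and were also below on array 4, and PRP16, SLU7 and PRP46 were above on both. HSH155, PRP45 and ISY1 lay on opposite sides. With the position trend removed, 15 of the 17 were on the same side and the correlation was 0.57. This pair of arrays was singled out of 10 pairs after the values were seen, and no test was made. Spots of 1 gene hardly repeated within array 2 (correlation 0.31), so its values may belong to other genes. In the other pairs with the same channel assignment the correlation was lower. It was -0.04 on arrays 2 and 5 (5 genes), 0.55 on arrays 4 and 5 (6 genes) and 0.10 on arrays 1 and 3 (23 genes). In the other pairs the counts ranged from 3 of 10 genes on arrays 1 and 5 (52.9% of all genes) to 5 of 6 on arrays 4 and 5 (51.5%). On arrays 1 and 4 it was 9 of 25 (48.4%), on arrays 3 and 4 8 of 11 (51.8%) and on arrays 1 and 3 13 of 23 (48.8%). It was 7 of 15 on arrays 2 and 3 (49.3%), 2 of 5 on arrays 2 and 5 (50.3%) and 3 of 4 on arrays 3 and 5 (58%).

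**Figure D5:**
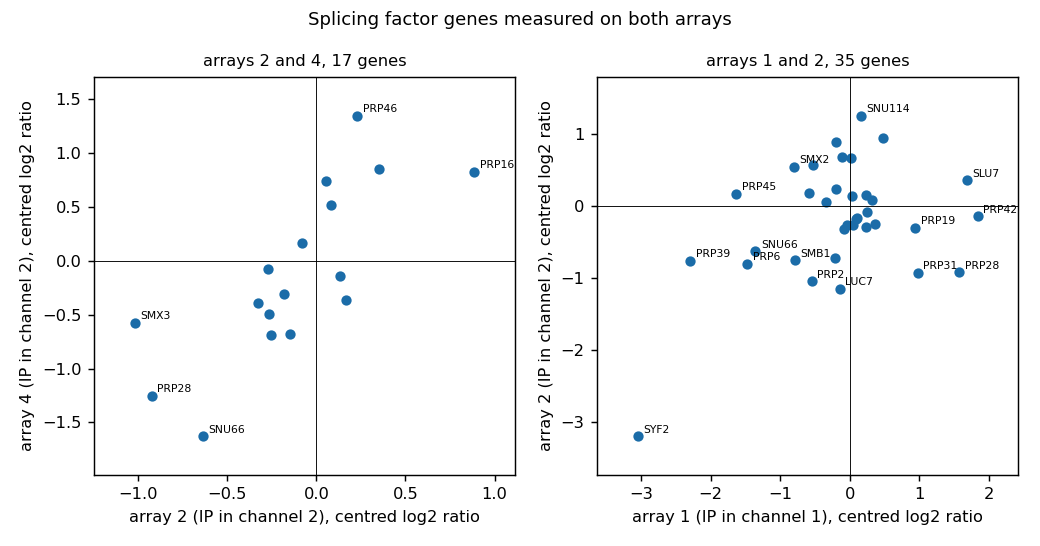
Centred log2 ratios of splicing factor genes measured on both arrays of a pair, arrays 2 and 4 (left, 17 genes, both with the IP RNA in channel 2) and arrays 1 and 2 (right, 35 genes, with the channels exchanged). On the left 14 genes fall at the lower left or upper right of the origin, and on the right 17 do.

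A value on the same side on every array was seen in 7 of the 33 splicing factor genes with at least 3 arrays (21.2%, against 18.5% of all genes). These were SMD1, PRP39, PRP3, PRP2 and PRP43 below and PRP22 and SLU7 above, of which SMD1, PRP2, PRP43 and SLU7 each had spots on opposite sides on at least 1 array. With the channel 2 arrays turned it was 11 of 33 (33.3%, against 17% of all genes). None of the 7 was among them, which follows from the turning where a gene was measured with both channel assignments. Those 11 were MUD1, PRP40, PRP42, SNU71, PRP11, PRP8, PRP24, SNU23, PRP19, PRP46 and CLF1. Among them PRP40, PRP11, PRP19 and CLF1 likewise had spots on opposite sides on at least 1 array. The shares in either direction were not tested. Which genes look stable thus depends on how the ratios run.

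Only 3 splicing factor genes had a value in all 4 replicates and entered the test of the mean log2 ratio against 0, and none passed. With limma and Benjamini-Hochberg adjustment over 703 genes, 0 genes (0%) had an adjusted p under 0.05, and 55 (7.82%) an unadjusted p under 0.05, none of them a splicing factor gene. SNU66 had a mean of -1.09 ± 1.94 (SD, n = 4; 95% interval -2.79 to 0.61; limma, adjusted p = 0.64) and was below 0 in 3 of 4 replicates. PRP16 had 0.66 ± 0.23 (-0.52 to 1.83; limma, adjusted p = 0.67) and was above in 4 of 4, as were 9.53% of all genes tested. SYF1 had 0.45 ± 0.82 (-0.83 to 1.73; limma, adjusted p = 0.76) and was above in 3 of 4. The median of the 3 means was 0.45, against 0.04 for all genes tested.

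The values of these 3 genes depended on the direction and on single arrays. With the channel 2 arrays turned, SNU66 had a mean of 1.49, PRP16 of -0.29 and SYF1 of 0.34. Among arrays 2, 4 and 5 alone, whose channel assignment was the same, SNU66 had -1.82 (limma, adjusted p = 0.71, unadjusted p = 0.044) and PRP16 0.78 (adjusted p = 0.75). In that limma fit 42 of all 735 genes had an unadjusted p under 0.05. SNU66 was at -0.39 without replicate 4 and at -1.94 without replicate 2, and SYF1 at 0.04 without replicate 2. On the second platform alone the means were -1.12, 0.76 and 0.63 for SNU66, PRP16 and SYF1, again none past the threshold. With the position trend removed they were -0.54, 0.41 and 0.25.

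Asking for values in only 3 replicates brought in 15 splicing factor genes, of which 0 passed among 2422 genes (0%; limma, smallest adjusted p over the 15 genes 0.80). At an unadjusted p under 0.05 there were 0 of the 15 and 4.91% of all genes. The means of 8 of the 15 were above 0 and those of 7 below (turned, 7 and 8), where 46.8% of all genes were above as deposited, and their median was 0.13 against -0.05 for all genes. Turned, the medians were -0.22 and -0.02. With 2 replicates required, 41 splicing factor genes were tested and again 0 passed (limma, smallest adjusted p 0.90). SNU13, with a mean of 2.13 over 2 replicates, was the 1 gene of the 41 at an unadjusted p under 0.05 (0.030), where 3.79% of all 4483 genes were.

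Other spliceosome genes did not pass either. Of 45 spotted genes outside the 55, 7 were tested and 0 passed (limma, smallest adjusted p 0.72), with a median mean of 0.23. CWC23 had 0.77 ± 1.91, NTR2 and SPP382, which act with PRP43 in taking the spliceosome apart, 0.35 ± 0.49 and 0.35 ± 1.08, and LSM2, of the ring that binds U6, 0.23 ± 0.34. CWC25, a factor of the first catalytic step, had 0.10 ± 0.69, DIB1, a tri-snRNP protein, -0.14 ± 1.61, and CWC15 -0.44 ± 0.59. Turned, these means were -0.44 for CWC23, -0.39 for NTR2, 0.33 for SPP382, -0.11 for LSM2, 0.39 for CWC25, -0.20 for DIB1 and 0.26 for CWC15. With the wider rule of 3 replicates, 18 of them were tested, from CUS2 (0.78 ± 1.52, turned -0.40) to SQS1 (-1.10 ± 1.62, turned -0.71), and 0 passed.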

How the data were processed

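Per the deposited tables, the authors gave 1 log10 ratio of the 2 channels per spot. Processing steps, direction and base of these ratios are not given in the sources used here. Base 10 was chosen because, of 1000 values per array, 36.6% to 94.3% were the log10 of a fraction of whole numbers with terms up to 65535 and a product under 100000000, against 4% to 8% with base 2 or e. Values were turned to log2 and centred on the median spot of the array. Of the spots, 6695 and 11138 carried 1 gene in GEO's platform annotation, none several, and 985 and 1662 none, and symbols were updated through RefSeq assembly R64, which held 5578 of 5583 and 5534 of 5539 genes. Spots of 1 gene were averaged. Ratios were formed and centred within an array, so arrays of both platforms entered 1 fit. The main test was limma (version 3.58.1, in R 4.3.3) of the mean ratio against 0, two-sided, adjusted by Benjamini-Hochberg (threshold 0.05), for genes valued in every replicate. It was also run on simulated data with known shifts. There every replicate of a gene had the same spread, unlike these arrays, so that run does not cover unequal spreads. Nothing says that the arrays came from separate cultures, and the p-values then cover only the spread between these arrays. Tables and plots used Python 3.11.15, numpy 2.4.6, pandas 2.3.3 and matplotlib 3.10.9.

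The 55 genes and all lists were chosen with earlier results of these data known. Named by rule were genes tested or on all 5 arrays, the highest and lowest mean of each role with at least 3 replicates, and tested other spliceosome genes with the highest and lowest of those with at least 3 replicates. All others of the 55 are named to account for every gene, after their values were seen. Alternatives changed the direction, replicate unit, platform, filter, scaling, centring, position trend (running median over 81 spots) and moderation, or left out a replicate.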

Additional observations from a re-analysis of the deposited data

Results flagged for a closer look

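Of 19 sets of values examined (10 genes over replicates and 9 splicing factor genes over the arrays that measured them), 4 had 1 value standing apart from the rest by Dixon's test at 95%. Chance flags about 1 in 20 such groups, and the arrays differ in spread. SYF1 stood apart on array 3, which is replicate 2, at 1.67 against a next highest value of 0.17, and this is counted both over arrays and over replicates. PRP16 stood apart on array 1, at -0.19 against a next lowest value of 0.63 on array 5. SPP382 stood apart in replicate 4, the array with the widest spread, at -1.25 against 0.67. The cause was not tested.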

How the results depend on the processing

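The count of genes past the threshold stayed at 0 under all 14 alternatives, and so did that of splicing factor genes. Among these, the second platform alone and leaving out replicate 1 were the same fit. Leaving out 1 replicate gave 0 to 0 genes in both counts. The median mean of the tested splicing factor genes ran from -0.30 (without replicate 4, over 11 genes) to 0.63 when 1 replicate was left out, against 0.45 with all. It was also below 0, at -0.24, both with the 3 arrays with the IP RNA in channel 2 alone (3 genes) and with arrays 1 and 2 not averaged (2 genes). PRP16 ran from 0.60 to 0.76, SNU66 from -1.94 to -0.39 and SYF1 from 0.04 to 0.63. With the channel 2 arrays turned, PRP16 reversed to -0.29 and SNU66 to 1.49, and by construction the group medians of arrays 2, 4 and 5 became 0.18, 0.18 and -0.19. With the position trend removed the group median of array 5 was -0.038. Over the alternatives the limma adjusted p ran from 0.62 to 0.93 for PRP16, from 0.65 to 0.95 for SNU66 and from 0.72 to 0.98 for SYF1. SYF1 had no value on array 2, so alternatives that need all 5 arrays or the 3 arrays with the IP RNA in channel 2 gave none for it. Genes at an unadjusted p under 0.05 numbered 17 with the arrays turned, 19 with eBayes trend and robust and 65 on the second platform alone. Signal over background is unknown, since the tables give ratios only. No paired analysis was possible because there is a single group of arrays, with no second group to pair it with, and the ratio within each array already sets the IP RNA against the total RNA of that array.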
